A study of Mus musculus with 9 samples.

Results

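The circular RNA (circRNA) described here comes from a window on mouse chromosome 15 (mm9, 102005000 to 102037000) that was chosen for Csad, the gene of cysteine sulfinate decarboxylase. A circRNA probe belonged to the window if the position in its name lay wholly inside it. This held for 1 of 14043 probes named by position, among 30534 circRNA probes on the array. The circle runs from 102009392 to 102019110, a span of 9718 bases as its name gives it. Circles named by a number carry no position in the files, so further circles of this gene could not be looked for among them. The files pair no probe with a gene, and exons or introns of this build were not used here, so the name Csad rests on the window alone. In the RefSeq table of GRCm38, Csad (gene ID 246277) lies on chromosome 15, has a length of 28056 bases, and stands between Soat2 and Zfp740.

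A circRNA forms when a downstream splice site of a transcript is joined to an upstream one, which closes the RNA into a ring without free ends. RNase R, an exonuclease that degrades linear RNA, spares such rings. Cysteine sulfinate decarboxylase converts cysteine sulfinate, an oxidation product of cysteine, to hypotaurine, which is then oxidised to taurine. In the mouse liver taurine is the main amino acid that is joined to bile acids before they are secreted.

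Male mice of the inbred strain C57BL/6J were compared for liver circRNAs at 20 weeks of age in 3 groups of 3 arrays. Metformin mice ate a high fat diet (45% of energy from fat) for 17 weeks and received 3 mg/kg of metformin, a biguanide that lowers blood glucose, by gavage each day for the last 5 weeks. High fat diet mice ate the same diet and received saline by gavage for those 5 weeks. Control mice were kept on chow for 17 weeks without a listed gavage, so diet and gavage cannot be told apart in comparisons with control. Liver RNA of 4 mice was pooled for each array, and the spread between arrays is thus one between pools. The RNA was digested with RNase R for 30 minutes and labelled with Cy3. Hepatocyte and other liver cell markers could not be checked on the array, because probes are not paired with genes. In whole liver, fewer cells of a type and less RNA per cell cannot be told apart.

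The share of circRNA probes well above background was 76.3% to 89.2% over the 9 arrays, lowest in metformin replicate 3 and high fat diet replicate 2. Metformin replicate 3 was the only array on a second slide and the only one scanned on another date. On the first slide, the second field of the barcode was 1 for all 3 controls and for high fat diet replicate 1, and 2 for the other 4 arrays. This field is called the barcode field below. Several arrays share each of its values, so it is not the place of a single array. No spot was saturated. Levels are given as log2 of the processed intensity above the array's 75th percentile. The level of a circle is the signal of its circRNA probe, not set against its partner probe.

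The circle was selected on its measured levels in these arrays: it had been noticed as lower on the high fat diet than in controls and higher again with metformin. Its differences in these comparisons are therefore a description, without a test. Its processed intensity was 3406, 3135 and 3611 on the 3 metformin arrays, 1899, 2044 and 2327 on the 3 high fat diet arrays, and 4135, 3478 and 2529 on the 3 control arrays. All high fat diet arrays lay below all others even before scaling, with control replicate 3 the nearest to them. After scaling, its levels were 2.20, 2.01 and 2.31 with metformin, 1.31, 0.96 and 1.40 on the high fat diet, and 2.30, 2.21 and 1.81 in controls. The high fat diet arrays did not overlap either other group, while the metformin and control arrays overlapped.

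The circle's probe was well above background, unsaturated and free of outlier flags on each of the 9 arrays. The raw intensity of its spot and of its partner's spot was at least 42.8 times the local background on every array. Its pooled SD within groups was 0.22, and the median over tested circRNAs was 0.20, so that it varied between pools about as much as other circles.

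On the high fat diet the circle had a level of 1.22 ± 0.234, against 2.11 ± 0.263 in controls (SD, n = 3 each). The log2 difference was -0.88 ± 0.173 (SE, limma), which is 54.2% of the control level. The gap between the highest high fat diet array and the lowest control array was 0.40 on the log2 scale, larger than the pooled SD. A difference this low or lower was measured for 0.501% of 25755 tested circRNAs, whose median difference was -0.06. Every high fat diet array lay below every control array for 9.05% of circRNAs with values on all arrays, and in the opposite direction for 3.53%. No circRNA passed an adjusted p of 0.05 in this comparison (limma, 0 of 25755, 0%), while 1867 had an unadjusted p under 0.05. Leaving out 1 array moved the difference most for high fat diet replicate 2 (-0.75) and control replicate 3 (-1.03).

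With metformin the level was 2.17 ± 0.150, against 1.22 ± 0.234 on the high fat diet alone (SD, n = 3 each). The log2 difference was 0.95 ± 0.173 (SE, limma), or 1.93-fold. The lowest metformin array lay 0.61 above the highest high fat diet array on the log2 scale. A difference this high or higher was measured for 0.123% of 24293 tested circRNAs, with a median of 0.03 over all of them. Every metformin array lay above every high fat diet array for 5.15% of circRNAs, and below them for 2.75%. No circRNA was called in this comparison either (limma, 0 of 24293, 0%; 911 at an unadjusted p under 0.05). Both comparisons share the high fat diet arrays, so their opposite signs are not independent of each other. All 3 high fat diet arrays were lower than all 6 others for 456 of 24546 circRNAs (1.86%), and higher than all 6 for 0.644%.

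**Figure D1:**
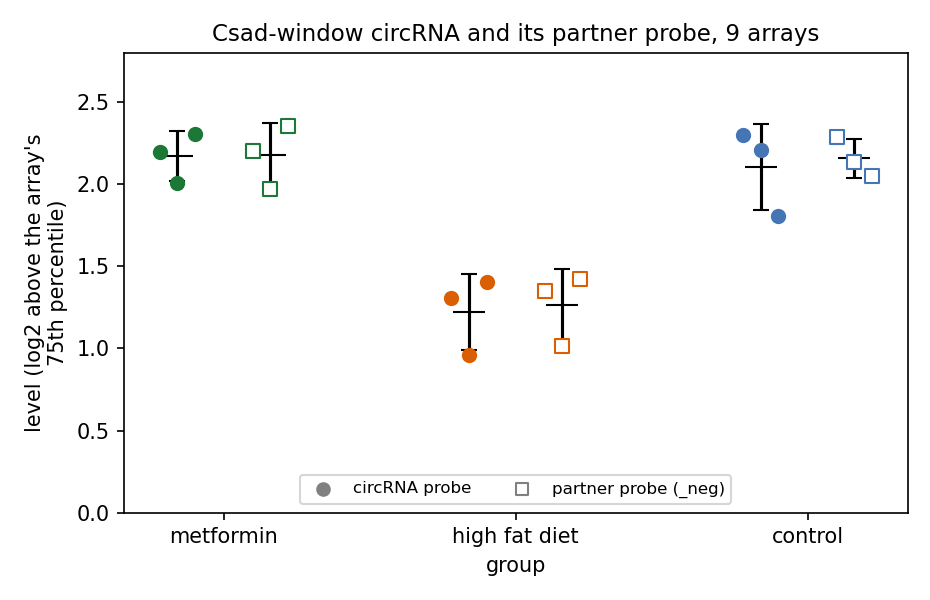
Level of the Csad-window circRNA (filled circles) and of its partner probe (open squares) on 9 arrays, as log2 above the array's 75th percentile, by group. Points are arrays, each a pool of 4 mice, and bars show the mean ± SD. The high fat diet arrays lie between 0.96 and 1.42 for both probes, below all metformin and control arrays.

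The circle was singled out against the high fat diet arrays, by its levels on the same metformin and control arrays that the third comparison uses. This comparison is therefore not independent of that choice, and its values are a description. The level was 2.17 ± 0.150 with metformin and 2.11 ± 0.263 in controls (SD, n = 3 each). The log2 difference was 0.07 ± 0.173 (SE, limma), with a 95% interval of -0.31 to 0.44 that does not allow for the selection. The upper end of the interval is 1.36-fold, so equal levels are not shown. The metformin and control arrays of the circle overlapped; for 11.6% of circRNAs they did not, in either direction. No circRNA passed the threshold here (limma, 0 of 25733, 0%; 1305 at an unadjusted p under 0.05). Ordered by mean level, metformin stood first, control second and high fat diet last, and metformin and control did not differ beyond their spread.

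The barcode field moved with the groups. On the first slide, 2 metformin and 2 high fat diet arrays had the value 2, and all controls had the value 1. Among the arrays with value 2, with 2 arrays of each group, the circle differed by 0.92 between metformin and high fat diet. Among those with value 1 on the first slide it differed by -0.80 between high fat diet replicate 1 and the 3 control arrays. A single array thus carries that difference. On neither slide did metformin and control arrays share a value of the field.

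Every circRNA probe on this array has a partner probe with the same name and the ending _neg. What the partner was designed to bind is not stated in the labels or files. The partner of the Csad-window circle had a level of 2.21, 1.97 and 2.36 with metformin, 1.35, 1.01 and 1.42 on the high fat diet, and 2.29, 2.13 and 2.05 in controls. As for the circle probe, its high fat diet arrays lay below all 6 others. This pattern was found for 2.07% of partner probes. The 2 spots are far apart on the array, by 60 rows and 32 columns. Over the 9 arrays the levels of circle and partner had a Pearson r of 0.98, given as a description; both were read on the same arrays and scaled by the same percentile.

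The partner differed by -0.89 ± 0.164 between high fat diet and control and by 0.91 ± 0.164 between metformin and high fat diet (log2, SE, limma). Both were within 1 SE of the differences of the circle probe. The log2 ratio of circle to partner stood at -0.01 ± 0.0435 with metformin, -0.04 ± 0.0187 on the high fat diet and -0.05 ± 0.171 in controls (SD, n = 3 each). It differed by 0.01 ± 0.107 between high fat diet and control (95% interval -0.24 to 0.26) and by 0.03 ± 0.107 between metformin and high fat diet (-0.21 to 0.28). Relative to its partner, the circle therefore showed no difference beyond the spread between arrays. For comparison, of 380 circRNAs whose high fat diet arrays were all lower than the 6 others and whose partner was tested, the partner showed the same for 55 (14.5%).

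The difference in processed intensity between circle and partner was small on every array. It was -15.3, 79.3 and -127.4 units with metformin, -63.2, -81.5 and -33.1 on the high fat diet, and 40.1, 177.9 and -469.9 in controls. The circle was the brighter probe on 3 of 9 arrays, metformin replicate 2 and control replicates 1 and 2. The scanner software gives each of these spots an error of about 10.0% of its intensity, and the errors of both spots were combined (root of the sum of squares) into an error of their difference. On 8 of 9 arrays the difference was smaller than this combined error. The exception was control replicate 3, where the partner was brighter by 1.20 times the combined error.

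In the authors' deposited table the circle had log2 values of 6.36 in metformin replicate 2 and of 5.18 and 7.58 in control replicates 1 and 2. The other 6 arrays, all 3 high fat diet arrays among them, stood at the floor of -3.32. The 3 arrays above the floor are those on which the circle probe was the brighter one. On these arrays the log2 of the intensity difference between circle and partner was 6.31, 5.33 and 7.48 in the same order, near the deposited values. Whether this holds for other circRNAs is not shown here. A floor value on 6 or more arrays was found for 20.2% of the 30534 circRNAs, and on all 3 high fat diet arrays for 16.0%. The mean log2 ratio to the partner over 9 arrays was -0.03 for this circle, against a median of 0.74 over all circRNAs, and it was within 0.1 of 0 for 8.51% of them.

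**Figure D2:**
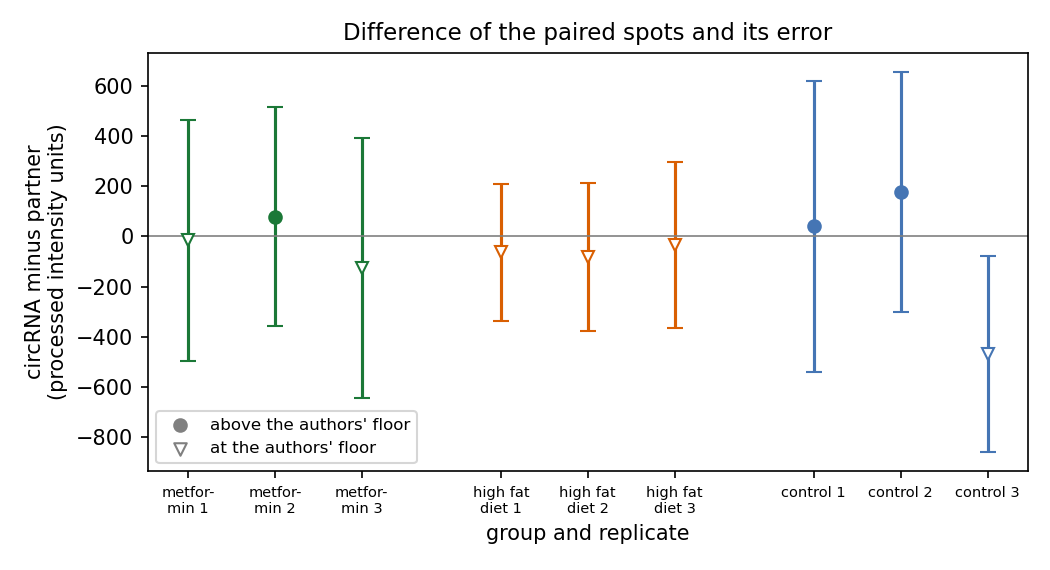
Processed intensity of the circRNA probe minus that of its partner probe on each array, in intensity units, with the combined error of both spots as bars. Filled circles mark the 3 arrays above the authors' floor and open triangles the 6 at the floor; the bar reaches 0 on 8 of 9 arrays.

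Neighbouring circles were compared to see whether other positions on the chromosome moved in the same way. Within 500 kb of the window lay 9 other circles named by position, all at higher coordinates, the nearest starting 219093 bases beyond the end of the Csad-window circle. Between high fat diet and control their log2 differences ranged from -0.28 to -0.02, and those between metformin and high fat diet from -0.21 to 0.31. All were smaller in size than those of the Csad-window circle, which was chosen for its differences. A difference as low as its own was measured for 0.501% of tested circRNAs between high fat diet and control. Between metformin and high fat diet, a difference as high was measured for 0.123%. Smaller differences nearby are therefore no separate result. None of the neighbours was called in any comparison, as was true of all tested circRNAs (limma, 0%). No neighbour with values on all 9 arrays had its high fat diet arrays all below the control arrays (9.05% over circRNAs with values on all arrays). None of them had its metformin arrays all above the high fat diet arrays (5.15%). The bright circle from 102303716 to 102309178 showed both patterns, but had unflagged values on only 5 of 9 arrays (1 metformin, 2 high fat diet and 2 control). These shares therefore do not apply to it. Its differences had the same signs as those of the Csad-window circle, at -0.26 and 0.06. The circle probe was brighter than its partner on every unflagged array for 8 of the 9 neighbours.

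**Figure D3:**
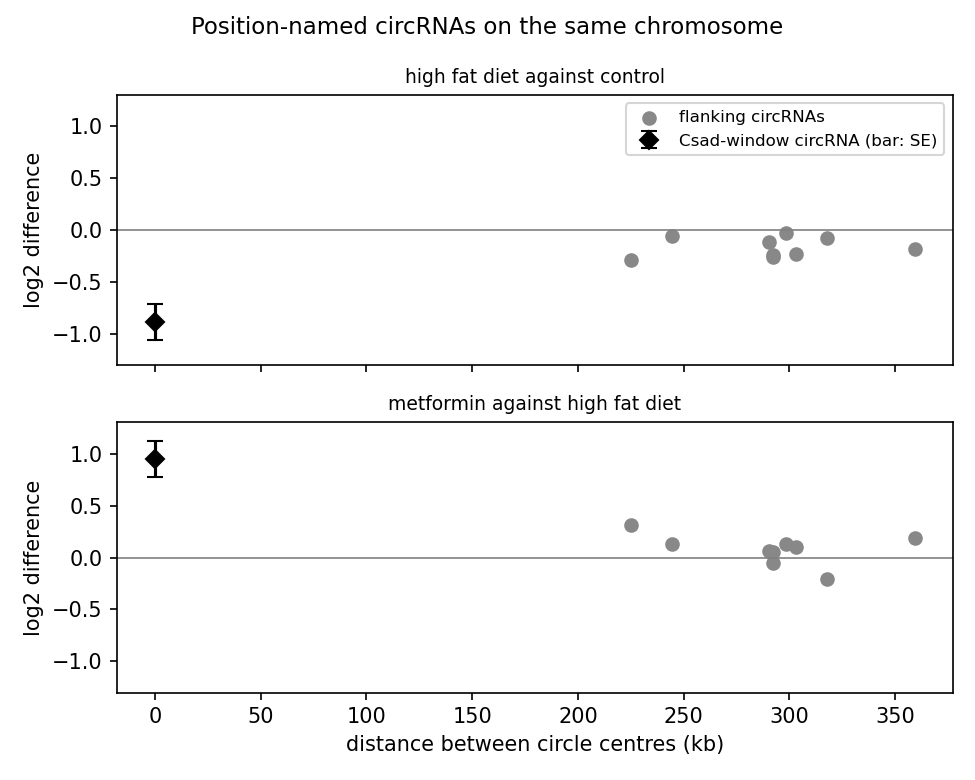
Log2 difference between high fat diet and control (top) and between metformin and high fat diet (bottom) for the Csad-window circRNA (diamond, bar: SE) and 9 flanking circRNAs (grey), against the distance between circle centres in kb. The flanking circles lie between -0.28 and 0.31.

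The circles whose profile over the 9 arrays was most like that of the Csad-window circle were sought among 21633 others that were well above background on every array. The highest Pearson r was 0.98 for mmu_circ_0015116, which had a level of 1.02 ± 0.0492 with metformin, 0.81 ± 0.0385 on the high fat diet and 1.03 ± 0.0838 in controls (SD, n = 3 each). Next came mmu_circ_0009315 and mmu_circ_0005293, with r of 0.95 for both. A circle on chromosome 7 (74053479 to 74054374) and one on chromosome 19 (50296613 to 50316584) also had r of 0.95. All 5 had their high fat diet arrays below the 6 others (1.86% over circRNAs with values on all arrays). Ranking by likeness to this profile favours that pattern, so it is no separate result. Their differences between high fat diet and control were smaller in size, from -0.42 to -0.21, and that of the Csad-window circle was part of why it was chosen. Unlike the Csad-window circle, 4 of the 5 were brighter than their partner on all 9 arrays. These correlations rank circles by likeness over 9 shared arrays and carry no test.

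**Figure D4:**
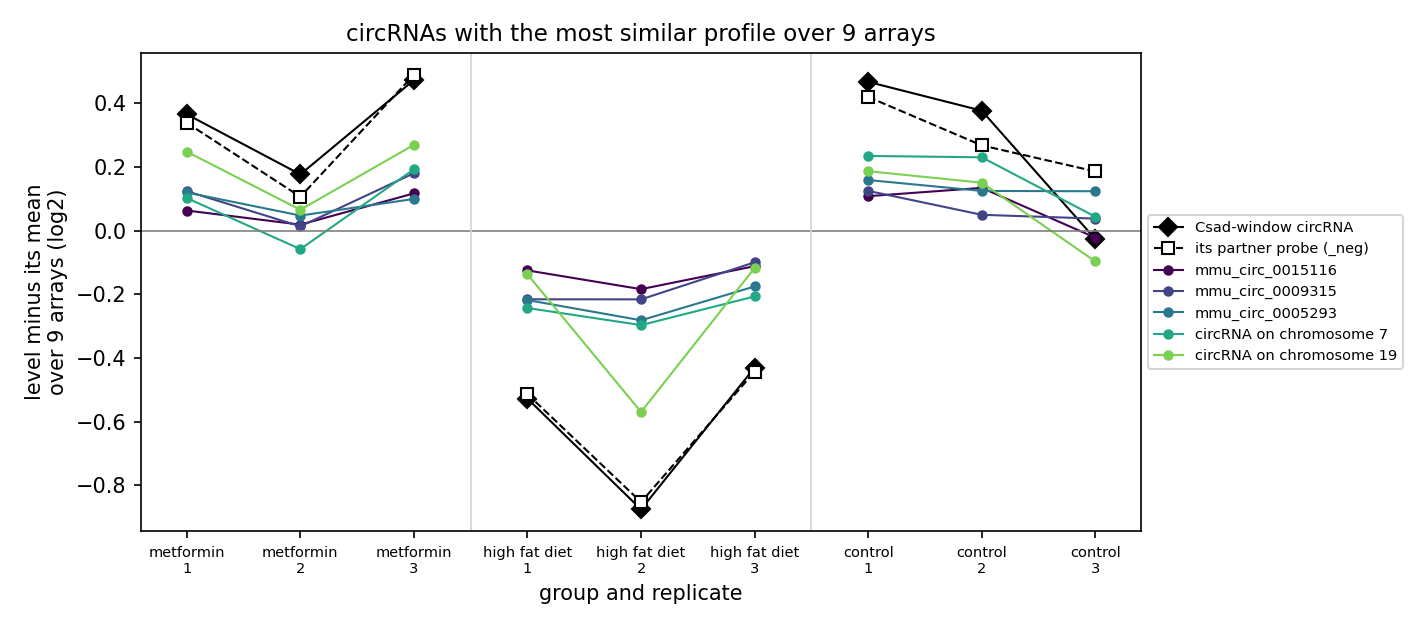
Level of each circRNA minus its own mean over 9 arrays (log2), by group and replicate, for the Csad-window circRNA, its partner probe and the 5 circRNAs with the most similar profile; lines join arrays of a group and mark no order. The partner follows the circle closely, and the 5 others, picked for their likeness, show the same low high fat diet values at a smaller size.

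Other genes of taurine synthesis and use, among them Cdo1, which makes cysteine sulfinate, and Baat, which joins taurine to bile acids, could not be tied to probes and were not analysed here.

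**Figure D5:**
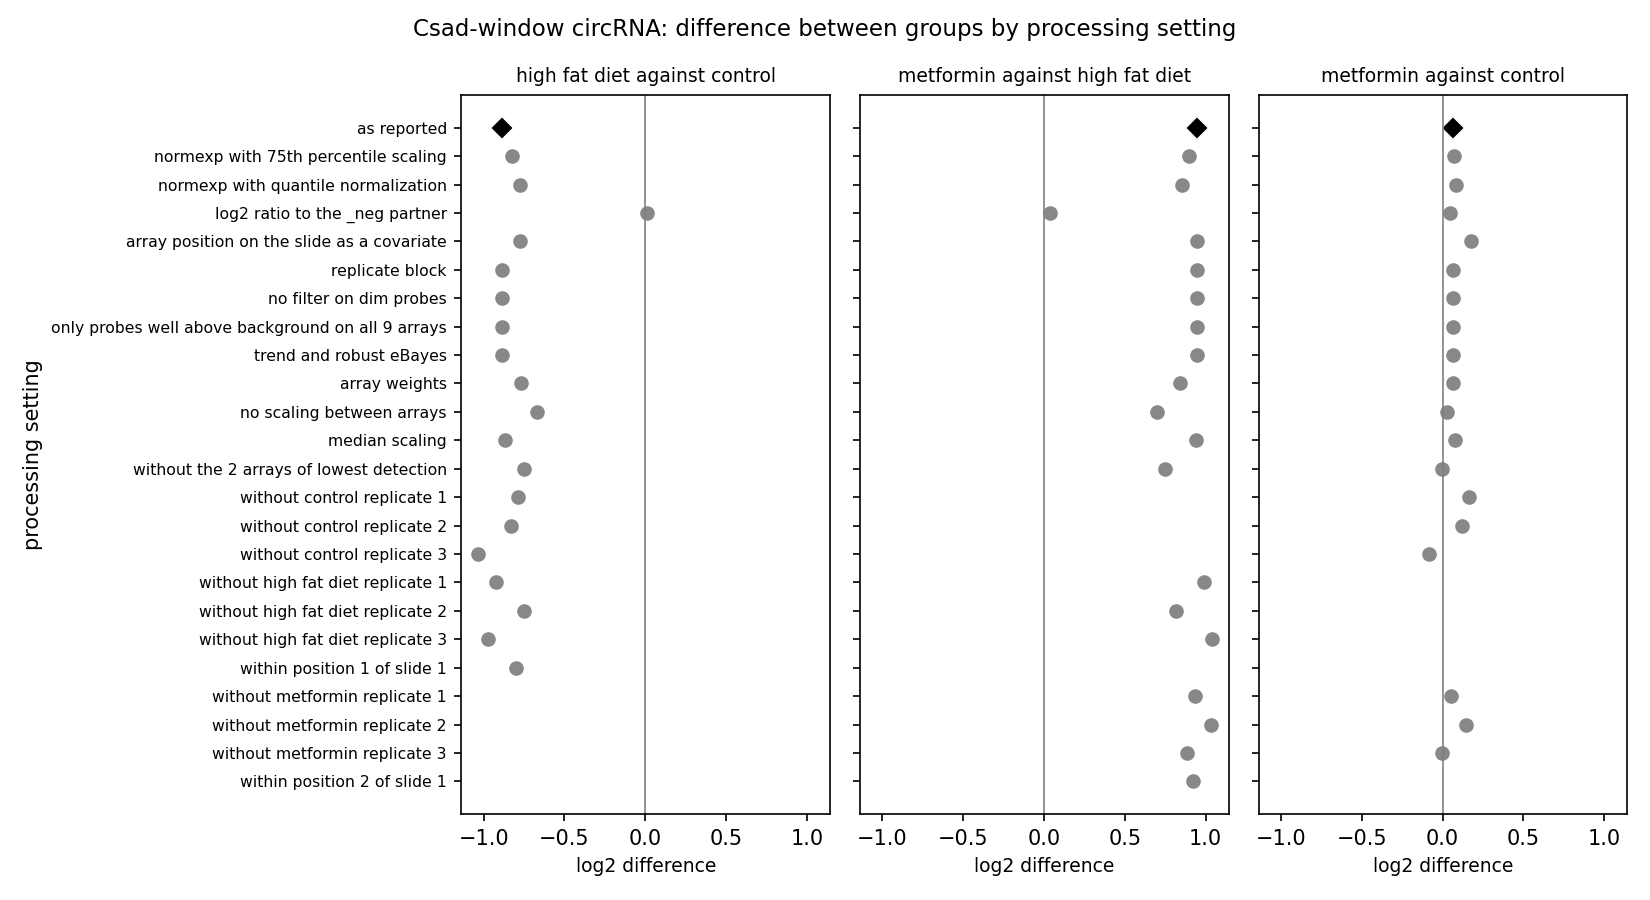
Log2 difference of the Csad-window circRNA in each comparison (panels) under each processing setting (lines of the vertical axis); the diamond is the value given in the text, and the authors' floored values are not drawn. Position in a setting label stands for the second field of the barcode. Differences of the circle probe alone stay between -1.03 and -0.67 for high fat diet against control. For metformin against high fat diet they lie between 0.70 and 1.04, and the ratio to the partner lies near 0.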

How the data were processed

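Per the file headers, the authors extracted spot intensities with Agilent Feature Extraction 11.5.1.1 on a grid of genome build mm9 (version 10.7 per the submitters' processing notes). The deposited processed intensity is background-subtracted and spatially detrended. The deposited log2 values per circRNA have a floor, and no header or label says how they were made. Processed intensities were brought to log2, outlier-flagged spots were left out, spots of 1 probe were averaged, and each array's 75th percentile over non-control probes was subtracted. A circRNA was tested if well above background on all 3 arrays of either group compared. A single limma fit (version 3.58.1, R 4.3.3) covered all 9 arrays, and p-values were adjusted by Benjamini-Hochberg. The fit was tested on simulated data. Alternatives covered background correction, scaling, filtering, the barcode field, replicate block and left-out arrays. Normexp used median spot intensities. The window and the pathway list were chosen with earlier results of these data known. The named circRNAs outside the window are the 5, well above background on all 9 arrays, with the highest Pearson r to it. The number of arrays limits the precision.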

Additional observations from a re-analysis of the deposited data

How the results depend on the processing

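The difference of the circle between high fat diet and control was below 0 in all settings run but the log2 ratio to the partner, which gave 0.011. The authors' deposited values gave -6.47, where 4 of 6 arrays stood at the floor. Between metformin and high fat diet the ratio gave 0.035, the authors' values 3.23 and unscaled intensities 0.70. In the authors' values, all high fat diet arrays and metformin replicates 1 and 3 stood at the floor. Without scaling the median of all tested circRNAs shifted to 0.16 and -0.23 in these comparisons, and relative to it the circle stood at -0.83 and 0.92. Between metformin and control the authors' values gave -3.24, with metformin replicates 1 and 3 and control replicate 3 at the floor. With 1 array left out the differences were -1.03 to -0.75, 0.82 to 1.04 and -0.08 to 0.16 in the same order of comparisons. Without both arrays of lowest detection they were -0.75, 0.75 and -0.0015. Unscaled values, median scaling and this exclusion were chosen after seeing the data. The cause of these changes was not tested.

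The count of called circRNAs, 0 in each comparison, depended on the setting. For high fat diet against control it was 19 with normexp and 75th percentile scaling, 8 with normexp and quantile normalization and 15 with the authors' values. Trend and robust fitting gave 7 there, and the barcode field as a covariate gave 1. Among probes well above background on all 9 arrays it was 1. For metformin against high fat diet it was 13 with the authors' values and 1 with the barcode field. For metformin against control it was 6 and 3 with the 2 normexp settings, 23 with the authors' values, 3 with trend and robust fitting and 1 with array weights. Leaving out 1 array gave 0 to 1 for metformin against high fat diet, the 1 being without high fat diet replicate 1, and 0 to 0 in both other comparisons. With the replicate number as a block 4 were called for high fat diet against control and 0 in the other comparisons, and the circle's differences were -0.88, 0.95 and 0.07. The deviations of same-numbered arrays had correlations of -0.19 to 0.25. With 3 arrays a group, these values cannot show whether such arrays share more than a number.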
